A study of Homo sapiens with 12 samples.

Results

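MX2 and MX1 lie side by side on the long arm of chromosome 21, both on the plus strand, and code for 2 of the best known interferon-induced antiviral proteins. The locus was taken here as every row of the deposited count table, on either strand of hg38 chromosome 21, that lies between a point 6943 bases before the start of MX2 and a point 10786 bases past the end of MX1. That rule gave 252 stranded regions of 5254113 in the table, 212 on the plus strand and 40 on the minus strand. MX2 runs from chr21:41361943-41409390 and MX1 from chr21:41420304-41459214 in the GENCODE annotation of hg38, with 10913 bases between them. Of the 252 regions, 192 had at least 1 read and 60 had none, among them all 5 regions in TMPRSS2 and both regions in FAM3B, the flanking genes. A filter on low counts left 26 regions for testing (22 plus, 4 minus), which held 23166 of the locus's 24135 reads (96.0%). The other 166 regions with reads held 969 reads in all and at most 36 each.

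The material was RNA pulled down from NCI-H1944, an established line derived from a lung adenocarcinoma, with J2, an antibody that binds double-stranded RNA whatever its sequence. Wild-type cells carried the label SCR, and cells with an IFNAR1 knockout genotype carried the label IFNAR1sg. IFNAR1 forms part of the receptor through which type I interferons act. Each genotype had 3 groups of 2 libraries: DMSO, MPS1i (BAY-1217389, an inhibitor of the spindle checkpoint kinase MPS1, 100 nM) and IFNb (recombinant interferon beta, 5 ng/ml). Drug or DMSO was given for 48 h and washed out, and the cells grew for a further 24 h, the period in which IFNb was added. The labels do not say whether the knockout was a clone or a pool, nor whether the 2 libraries of a group came from separate cultures, so p-values measure the spread between libraries, which may be technical. Input RNA was not analysed here: more transcript and a larger double-stranded share of it cannot be told apart, and neither can fewer responding cells and less RNA per cell.

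MX proteins are large GTPases related to dynamin. They assemble into rings and helices and block viruses after entry; MX1 acts in the cytoplasm and is best known against influenza viruses, and MX2 sits at nuclear pores and restricts HIV. In most cells both genes are nearly silent until type I or type III interferon activates transcription factors that bind promoter elements built from a pair of GAAA blocks.

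RefSeq (GRCh38.p14) gives 3 start windows for MX1, each from 250 bases before to 50 bases after a transcript start. They are shown because MX1 RNA rose with both agents and each window lies in full opposite a tested minus-strand region, while the third also shares 232 bases with a tested plus-strand one. Capitals mark every match, on either strand, to GAAANNGAAA or to GAAANGAAA, the second spacing having been added after the sequences were seen.
MX1 window 1, plus strand, chr21:41420308-41420607: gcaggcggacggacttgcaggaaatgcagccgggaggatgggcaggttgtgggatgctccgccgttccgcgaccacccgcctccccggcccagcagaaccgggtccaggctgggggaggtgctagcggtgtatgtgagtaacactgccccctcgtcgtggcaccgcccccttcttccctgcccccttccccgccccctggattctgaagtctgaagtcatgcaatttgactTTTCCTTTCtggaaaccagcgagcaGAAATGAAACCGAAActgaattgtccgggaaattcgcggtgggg
MX1 window 2, plus strand, chr21:41425989-41426288: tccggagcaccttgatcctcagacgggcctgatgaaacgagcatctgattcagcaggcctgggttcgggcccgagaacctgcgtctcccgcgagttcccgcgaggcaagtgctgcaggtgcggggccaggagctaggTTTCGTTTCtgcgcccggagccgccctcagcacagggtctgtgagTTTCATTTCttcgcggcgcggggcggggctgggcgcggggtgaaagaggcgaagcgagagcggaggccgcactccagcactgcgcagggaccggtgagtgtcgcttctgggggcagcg
MX1 window 3, plus strand, chr21:41431800-41432099: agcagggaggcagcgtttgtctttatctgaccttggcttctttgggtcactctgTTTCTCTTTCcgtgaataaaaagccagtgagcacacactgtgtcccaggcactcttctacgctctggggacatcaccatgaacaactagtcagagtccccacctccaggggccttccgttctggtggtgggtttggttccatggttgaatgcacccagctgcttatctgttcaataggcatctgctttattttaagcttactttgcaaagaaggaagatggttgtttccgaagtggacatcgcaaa

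The first window holds GAAANGAAA on the plus strand from base 257 and on the minus strand from base 232, and GAAANNGAAA on the plus strand from base 262, where it overlaps the first of these. The second holds GAAANGAAA on the minus strand from bases 138 and 183. The third holds GAAANNGAAA on the minus strand from base 55. Of 35116 RefSeq windows of this length, 3.57% hold GAAANNGAAA and 3.12% hold GAAANGAAA on either strand. These are matches of letters, not measured binding sites. The tested regions are chr21:41419823-41441030 on the minus strand and chr21:41431684-41432031 on the plus strand, and their values stand below.

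Library totals ran from 3739443 to 7430687 reads. Both SCR IFNb libraries stood apart, with 295367 and 296843 regions holding reads against 566704 to 935974 in the other 10, and with 49.6% and 47.9% of reads in regions that share an exon base against 33.2% to 39.7%. In the IFNAR1 region with the most reads, the SCR libraries had 7.08 to 9.54 CPM (counts scaled to library size with TMM factors) and the IFNAR1sg libraries 1.34 to 2.73, so the 2 labels did not overlap and IFNAR1sg libraries were not at 0. Epithelial markers were led by KRT8 (1661 to 4245 CPM), while NKX2-1 and KRT19 had no reads in the table. The 9 epithelial markers summed to 1728 to 1847 CPM in SCR DMSO, 2924 to 3247 in SCR MPS1i and 3941 to 4312 in SCR IFNb, and in IFNAR1sg to at most 2396 under DMSO or MPS1i and 2669 to 3207 under IFNb. These sums include regions that share an exon base and are nearly all KRT8. Without such regions 6 of the markers were measured. In SCR with IFNb edgeR called 1 of the 6 higher (background 7.92%) and 2 lower (38.5%), and with MPS1i 4 higher (22.1%) and 0 lower (21.4%). CDH1 went from 27.5 and 27.4 CPM in SCR DMSO to 10.7 and 7.08 in SCR IFNb. Of 7 fibroblast markers, 6 had reads, nearly all of them FAP, with COL1A2 at 0. Their sum was 0.951 to 2.04 CPM in SCR DMSO, 14.4 to 16.7 in SCR MPS1i and 4.31 to 5.78 in SCR IFNb, and 1.27 to 1.43, 12.8 to 16.3 and 1.55 to 3.47 in the same order in IFNAR1sg. In SCR the 3 endothelial markers summed to 2.999 to 4.44 CPM under DMSO, 5.81 to 6.07 under MPS1i and 3.69 to 6.09 under IFNb. In IFNAR1sg they summed to 3.64 to 3.78, 8.19 to 9.39 and 3.47 to 3.75 in the same order. The part of these shifts in the results below was not tested. Immune markers summed to at most 1.01 CPM in any library.

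The locus went from a trace to a visible share of the J2-bound RNA. Among SCR libraries it held 0.00390% and 0.00379% of reads under DMSO, 0.0656% and 0.0656% under MPS1i, and 0.118% and 0.124% under IFNb. Among IFNAR1sg libraries the shares were 0.00307% and 0.00324% under DMSO, 0.0284% and 0.0289% under MPS1i, and 0.0248% and 0.0221% under IFNb. Treated libraries lay above the DMSO libraries of their genotype, and IFNAR1sg libraries below SCR libraries with the same agent. The 5 regions with the most reads carried 75.7% of the locus's reads.

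**Figure D1:**
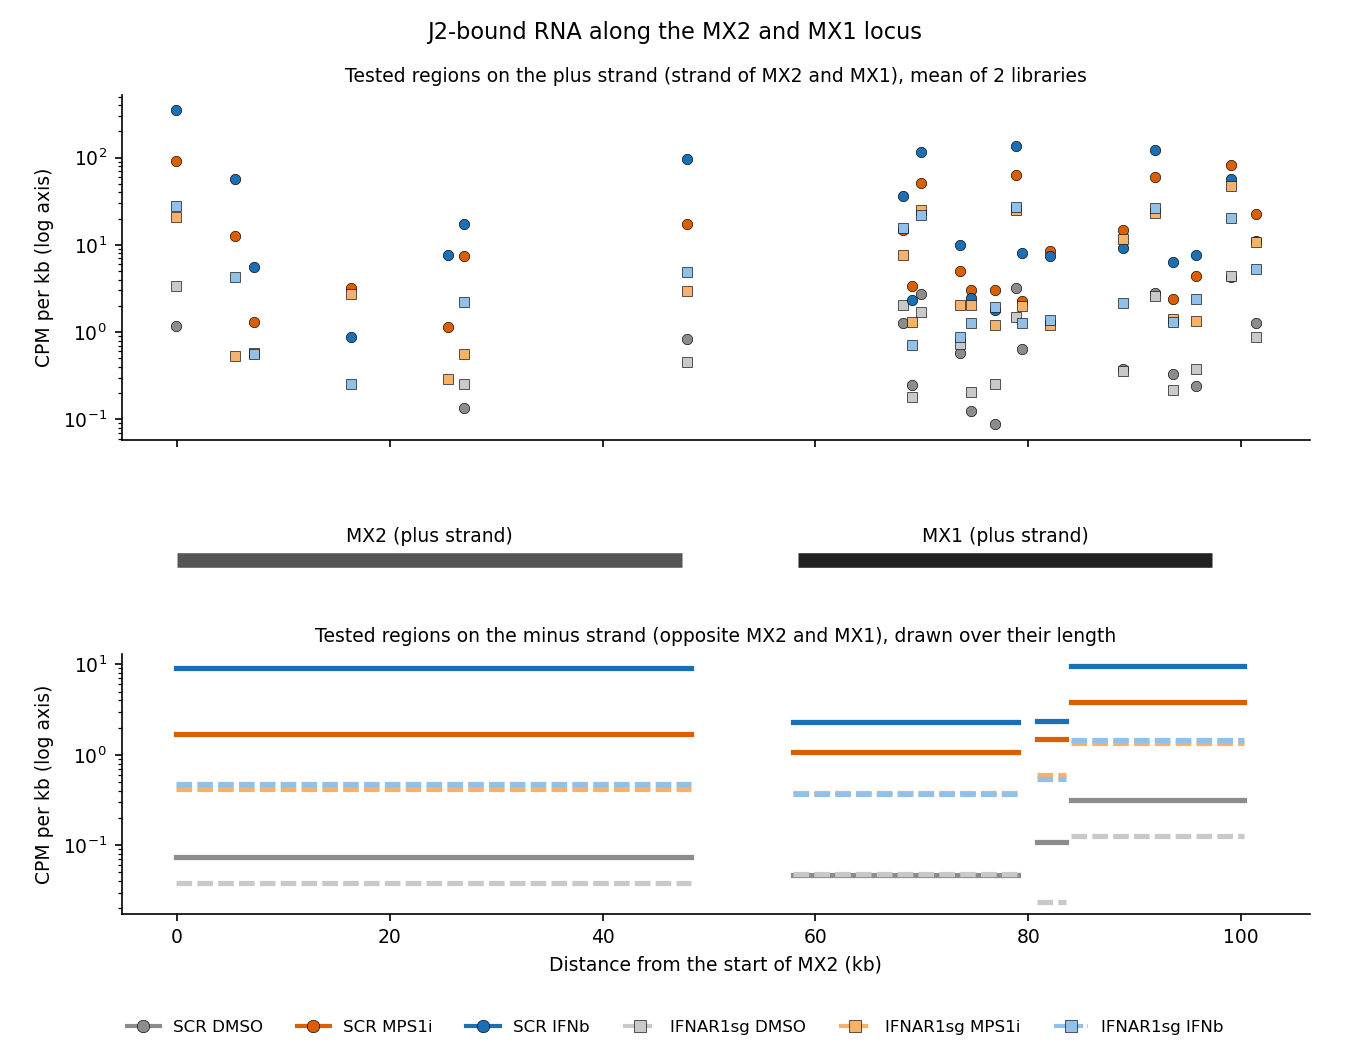
Mean level (CPM per kb of region, log axis, 2 libraries per group) of the 26 tested regions against distance from the start of MX2 in kb; plus-strand regions are points at their centres, minus-strand regions are lines over their length, and means of 0 are not drawn. Minus-strand regions span all of MX2 and most of MX1, with SCR IFNb highest in each, while past the end of MX1 the SCR MPS1i points lie above the SCR IFNb points.

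In SCR cells, 22 of the 26 tested regions rose with MPS1i and 24 with IFNb, and none fell (edgeR's quasi-likelihood test, Benjamini-Hochberg adjusted p under 0.05 over all regions). The background was 9.5% of 89111 tested regions called higher with MPS1i and 15% with IFNb. In IFNAR1sg cells 16 rose with MPS1i (background 9.41%) and 13 with IFNb, where only 0.547% of all regions were called higher. In SCR, both MPS1i libraries lay above both DMSO libraries in 26 of the 26 regions (background 28.6% of all tested regions) and both IFNb libraries in 25 (27.5%). In IFNAR1sg this held in 20 regions with MPS1i (29.6%) and in 23 with IFNb (20.2%). These members passed the filter largely through the treated groups, so the counts describe the locus and are not a test of it.

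Within MX1, reads gathered at chr21:41452869-41454908, which shares its first base with an MX1 exon and runs on into the last intron. A region at such a border can hold reads of the adjoining exon. SCR DMSO libraries had 5.04 and 6.34 CPM here, MPS1i libraries 138 and 105, and IFNb libraries 242 and 260.3. The IFNAR1sg libraries had 5.46 and 5.22 CPM under DMSO, 49.0 and 44.7 under MPS1i, and 59.7 and 49.1 under IFNb. No treated library came near a DMSO library, and both IFNAR1sg treatments lay below both SCR treatments. The log2 changes were 4.42 ± 0.21 (SE, n = 2 libraries per group throughout) with MPS1i and 5.47 ± 0.21 with IFNb in SCR (edgeR adjusted p = 1.5e-30 and 1.1e-36), and 3.13 ± 0.21 and 3.35 ± 0.21 in IFNAR1sg (7.6e-21 and 3.0e-22).

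Further upstream in MX1, chr21:41431684-41432031 shares 318 of its 348 bases with an exon and reaches into the third start window printed above. Levels in SCR were 0.954 and 0.951 CPM under DMSO, 20.2 and 15.5 under MPS1i, and 45.0 and 35.1 under IFNb. Its changes were 4.19 ± 0.37 and 5.36 ± 0.35 in SCR, and 3.98 ± 0.44 and 3.78 ± 0.44 in IFNAR1sg, all called. Intronic regions that share no exon base moved the same way. The intronic region chr21:41429975-41430439 rose by 3.53 ± 0.49 with MPS1i and 4.81 ± 0.46 with IFNb in SCR, and by 1.90 ± 0.49 and 2.95 ± 0.44 in IFNAR1sg. A region 106 bases long, chr21:41440776-41440881, rose by 4.13 ± 0.57 and 5.24 ± 0.54 in SCR and by 3.95 ± 0.76 and 4.09 ± 0.74 in IFNAR1sg. In the last intron, chr21:41456944-41458508 rose by 4.13 ± 0.56 and 4.95 ± 0.54 in SCR and by 1.92 ± 0.61 and 2.76 ± 0.55 in IFNAR1sg. Leaving out single libraries ended some of these IFNAR1sg calls. That of chr21:41429975-41430439 with MPS1i was lost without DMSO replicate 2 or MPS1i replicate 1 (edgeR adjusted p 0.138 and 0.115), and that of chr21:41440776-41440881 with IFNb without DMSO replicate 2 or IFNb replicate 1 (0.113 and 0.110). For chr21:41456944-41458508 the MPS1i call was lost under 5 alternatives, among them leaving out DMSO replicate 2 or MPS1i replicate 1 (0.330 and 0.158), and the IFNb call without DMSO replicate 2 or IFNb replicate 2 (0.377 and 0.062). Of the 13 tested regions in MX1, 11 rose with MPS1i and 12 with IFNb in SCR, and 7 and 5 in IFNAR1sg.

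MX2 was quieter at baseline. Its first tested region, chr21:41361813-41361996, starts 130 bases before the gene and takes in 54 bases of its first exon. The 2 SCR DMSO libraries had 0.273 and 0.158 CPM, the MPS1i libraries 16.7 and 17.1, and the IFNb libraries 61.8 and 67.4. For IFNAR1sg the levels were 0.728 and 0.522 CPM under DMSO, 3.61 and 4.16 under MPS1i, and 5.04 and 5.14 under IFNb. SCR IFNb stood far above every other group, and the treated IFNAR1sg libraries stayed above DMSO. The changes were 6.14 ± 0.45 and 8.07 ± 0.40 in SCR and 2.64 ± 0.46 and 3.02 ± 0.44 in IFNAR1sg (edgeR adjusted p from 2.5e-29 to 1.4e-05). Per kb of region this was the highest level of the locus, 351 CPM per kb in SCR IFNb against 123 for the MX1 border region.

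Intronic RNA of MX2 was sparse. The region chr21:41388698-41389210 had 0.136 and 0 CPM under DMSO in SCR, 4.04 and 3.70 under MPS1i, and 11.3 and 6.46 under IFNb, rising by 5.37 ± 0.89 and 6.57 ± 0.82. The region chr21:41367336-41367462 had no reads in either SCR DMSO library. Against a floor of 3 counts over those 2 libraries it was at least 7.09-fold higher with MPS1i and at least 32.7-fold higher with IFNb. Of the 6 tested regions in MX2, 4 rose with MPS1i and 5 with IFNb in SCR, and 2 and 1 in IFNAR1sg. The 6 tested regions of the locus with the fewest reads (32 to 63 each, in MX1 and MX2) gave 2 of the MPS1i calls and 4 of the IFNb calls in SCR.

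Summed over a gene's regions that share no exon base, mostly introns, MX1 rose by 3.87 ± 0.22 with MPS1i and 4.63 ± 0.22 with IFNb in SCR, and by 2.46 ± 0.23 and 2.76 ± 0.23 in IFNAR1sg. The MX1 sum held 25 and 18 reads in SCR DMSO and 21 and 27 in IFNAR1sg DMSO, against 123 to 262 in treated libraries. The MX2 sum held 6 and 5 reads under DMSO in SCR, 102 and 118 under MPS1i, and 164 and 170 under IFNb, changes of 4.81 ± 0.34 and 5.95 ± 0.32. In IFNAR1sg the MX2 sum held 0 and 3 reads with DMSO, 45 and 58 with MPS1i, and 46 and 43 with IFNb. Since the IFNAR1sg DMSO group had only 3 reads, the fold is given with its counting interval: 31.5 (95% interval 10.5 to 155) for MPS1i and 26.2 (8.67 to 129) for IFNb. The same counting folds in SCR were 28.3 (15.5 to 57.6) and 63.4 (35.0 to 128). Intervals cover counting error only.

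RNA continued past the end of both genes. After a gap of 438 bases behind MX1, chr21:41459653-41462274 carried more reads than any other region of the locus, 5914. Its SCR libraries stood at 11.9 and 10.8 CPM under DMSO, 214 and 216 under MPS1i, and 155 and 143 under IFNb. Its IFNAR1sg libraries stood at 9.83 and 13.0 CPM under DMSO, 126 and 120.1 under MPS1i, and 53.6 and 52.3 under IFNb. Here MPS1i lay above IFNb in both genotypes, with no overlap. In SCR this was the reverse of the order at the MX1 border region, while inside MX1 in IFNAR1sg the agents had no common order. Its changes against DMSO were 4.24 ± 0.18 and 3.71 ± 0.18 in SCR, and 3.41 ± 0.18 and 2.19 ± 0.18 in IFNAR1sg.

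The table annotates THE1B, a primate endogenous retroviral repeat, in both this region and the next, chr21:41462290-41464313, which showed the same order. The latter had 2.86 and 2.22 CPM under DMSO in SCR, 47.5 and 43.9 under MPS1i, and 22.5 and 21.8 under IFNb. The IFNAR1sg values were 1.46 and 2.09, 23.0 and 20.4, and 11.6 and 9.73 CPM. Behind MX2, the IFNb libraries lay above the MPS1i libraries in both genotypes, but in IFNAR1sg the difference (log2 0.74) was not called. After a gap of 5 bases, chr21:41409396-41410287 had 0.682 and 0.792 CPM under DMSO in SCR, 15.9 and 15.3 under MPS1i, and 102 and 70.8 under IFNb. The IFNAR1sg levels, in the same order, were 0.546 and 0.261, 2.02 and 3.22, and 5.30 and 3.47 CPM. The changes were 4.37 ± 0.38 and 6.84 ± 0.34 in SCR, and 2.73 ± 0.56 and 3.46 ± 0.51 in IFNAR1sg.

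**Figure D2:**
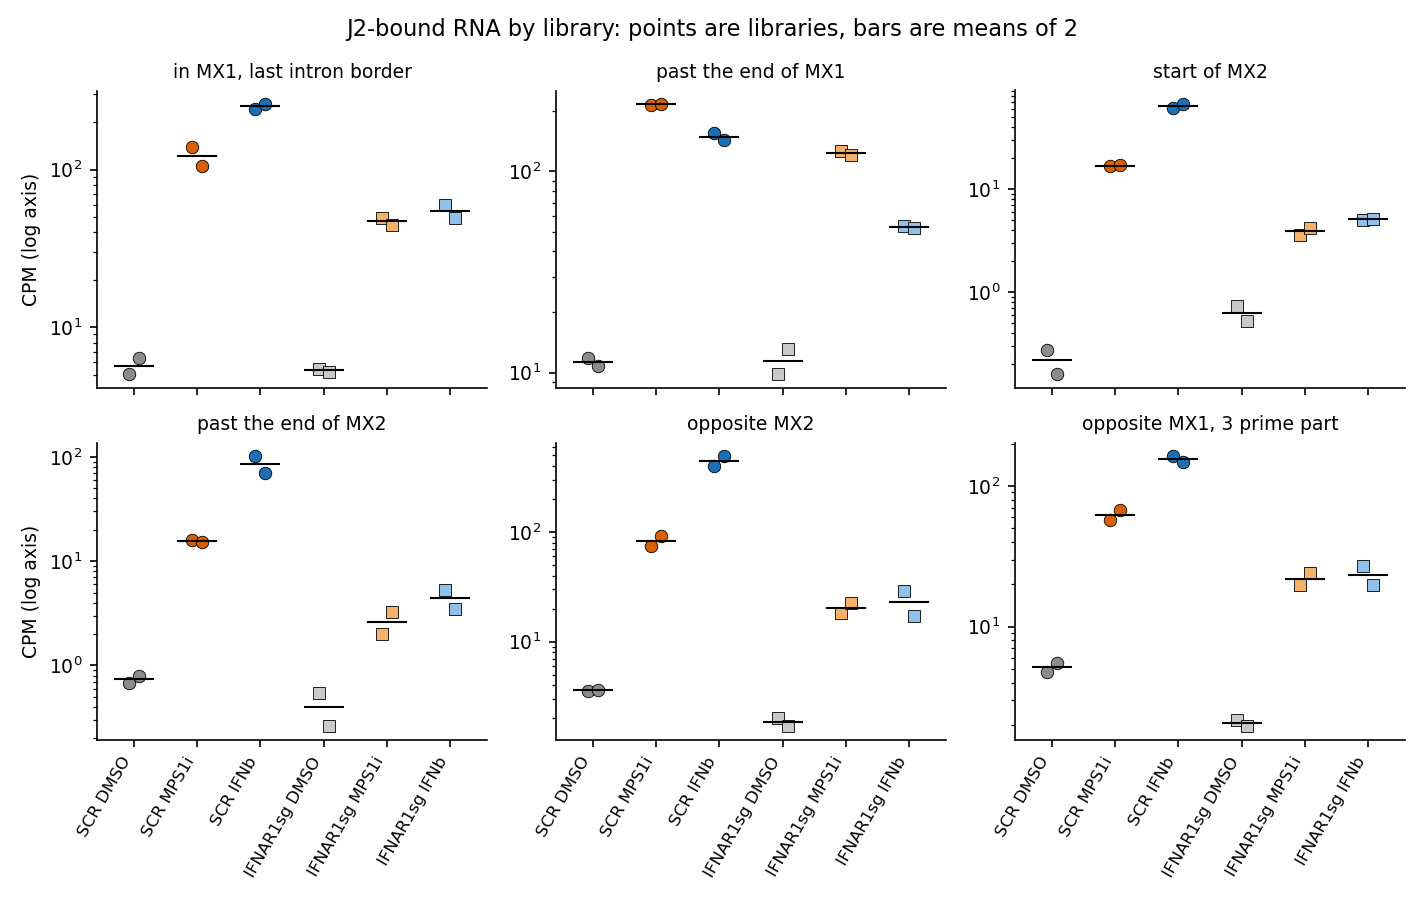
CPM on a log axis for 6 regions of the locus in each of the 12 libraries; points are libraries (circles SCR, squares IFNAR1sg) and bars are means of 2. SCR IFNb is the highest group in 5 panels, and past the end of MX1 SCR MPS1i (214 and 216 CPM) is highest.

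On the opposite strand, a single region of 48403 bases, chr21:41361814-41410216, covers all of MX2. No gene is annotated on that strand there. SCR libraries had 3.54 and 3.64 CPM under DMSO, 74.3 and 91.8 under MPS1i, and 397 and 490.4 under IFNb, the highest level among the 26 tested regions. IFNAR1sg libraries had 2.0 and 1.69 CPM under DMSO, 18.2 and 22.7 under MPS1i, and 28.7 and 17.2 under IFNb. The SCR IFNb libraries stood apart from all others, while in IFNAR1sg the MPS1i and IFNb libraries overlapped. Its changes were 4.53 ± 0.23 and 6.94 ± 0.23 in SCR (edgeR adjusted p = 1.0e-28 and 2.2e-40), and 3.47 ± 0.27 and 3.64 ± 0.27 in IFNAR1sg (1.7e-17 and 2.3e-18). As the region is long, its level per kb was low, 9.16 CPM per kb in SCR IFNb.

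Opposite MX1 there were 3 tested regions. The one with the most reads, chr21:41445995-41462255, runs under the 3′ part of MX1 and 3041 bases beyond its end, so that it lies opposite 2603 of the 2622 bases of the first region past MX1. Under DMSO the SCR libraries had 4.77 and 5.55 CPM, under MPS1i 56.9 and 67.5, and under IFNb 163 and 148. The IFNAR1sg libraries had, in that order, 2.18 and 1.96, 19.8 and 24.2, and 27.0 and 19.9 CPM. Unlike the plus-strand RNA past MX1, this opposite-strand region as a whole was higher with IFNb than with MPS1i in SCR. Most of it, 13220 bases, lies under MX1, so its level does not give the RNA opposite the stretch past MX1 alone. The region under the 5′ part, chr21:41419823-41441030, starts on the far side of the MX1 start by 481 bases and lies opposite all 3 start windows printed above. Its levels in SCR were 1.36 and 0.634 CPM under DMSO, 19.0 and 26.4 under MPS1i, and 48.7 and 50.1 under IFNb. For IFNAR1sg they were 1.27 and 0.782, 6.94 and 8.99, and 6.85 and 8.62 CPM. The last of the 3, chr21:41442747-41445490, lies in the span of AP001610.1, a gene annotated as antisense to MX1, shares 1 base with an exon of its own strand, and had at most 7.0 CPM. All 3 were called higher in the 4 comparisons with DMSO, by 2.93 to 5.57, though for the last the call in IFNAR1sg with IFNb was lost under 6 of the alternatives run (adjusted p 0.065 to 0.385).

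The libraries came from a stranded kit, but the strand setting used in counting is not known from the sources used here. The plus-strand regions of MX2 cover 54 of its 13047 exon bases, and those of MX1 320 of 8616, whereas the opposite-strand regions cover 13047 and 7906. Reads of the 2 strands therefore come from different bases, and reads of spliced MX RNA given to the wrong strand would fall in the opposite regions; whether any did was not tested. In SCR IFNb, 79.3% of the reads of MX2 (own and opposite regions, both libraries) lay on the opposite strand and 35.6% of those of MX1. Across 28 antiviral effector genes with at least 100 reads in that group, the same share ran from 0% to 96.1% with a median of 20.2%. Of these genes, 3 were above MX2 and 6 above MX1. Only opposite regions with no gene on their strand were counted. For OAS2, OAS3, IFIT1, IFIT3, TRIM22, IFIH1 and PARP9 such regions held no exon base and no reads. Their 0% may reflect what was counted, and it lowers the median. IFI44 and IFI44L were given the same opposite reads. For MX2 and MX1 the shares in SCR DMSO were 77.8% and 38.5%, and in IFNAR1sg IFNb 67.7% and 26.3%. Counting the RNA past MX2 as well, the opposite share by library was 66.7% (95% Clopper-Pearson interval 49.8% to 80.9%) and 67.6% (49.5% to 82.6%) in SCR DMSO, and 65.0% (62.8% to 67.0%) and 72.0% (70.1% to 73.9%) in SCR IFNb. In SCR MPS1i it was 55.4% (51.0% to 59.6%) and 63.2% (59.8% to 66.5%). The intervals of the 2 MPS1i libraries did not overlap, nor did those of the 2 IFNb libraries, while the higher MPS1i library overlapped the lower IFNb library. Across the 12 libraries the share ran from 54.1% to 72.0%, and no difference between groups was tested.

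**Figure D3:**
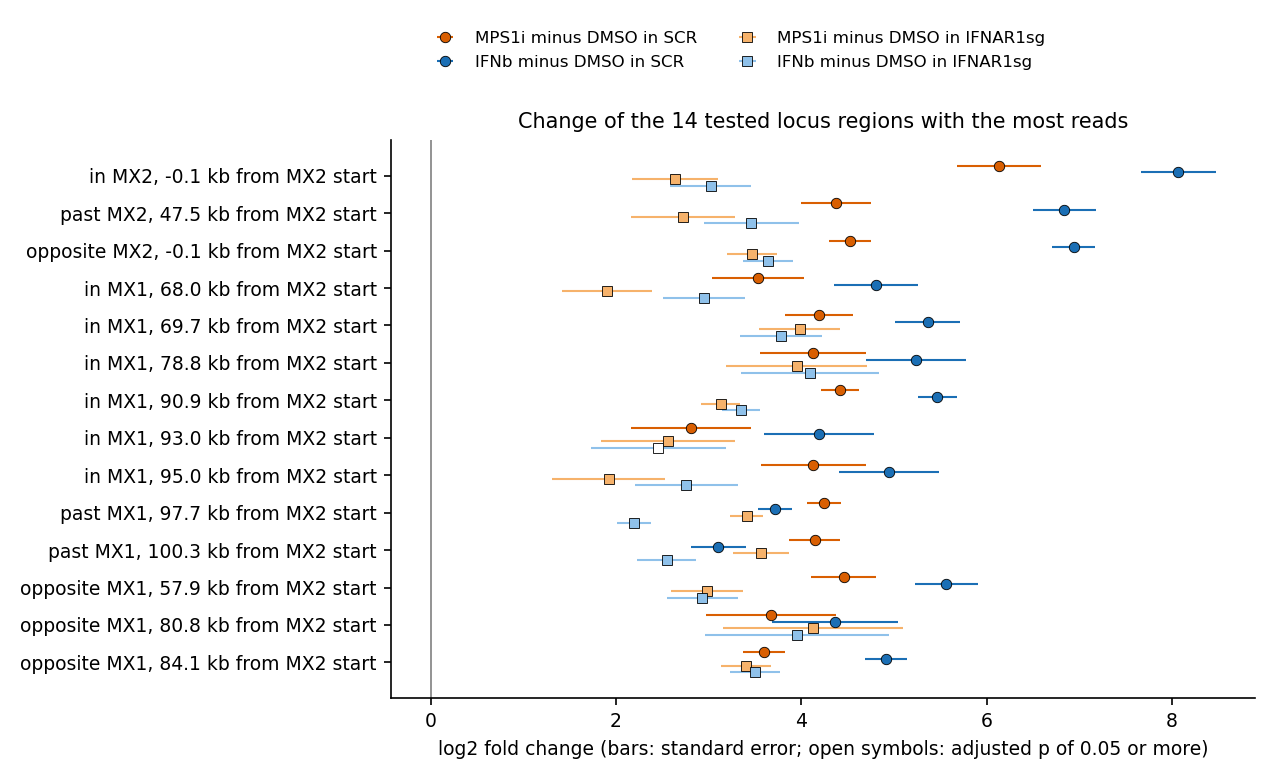
Log2 fold changes against DMSO (points, with standard errors as bars) of the 14 tested regions with the most reads, ordered by place, for 4 comparisons with 2 libraries per group; open symbols did not pass an adjusted p of 0.05. The changes in IFNAR1sg (squares) are mostly smaller than those in SCR (circles), and behind MX1 the MPS1i change exceeds the IFNb change in each genotype.

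A direct comparison of the agents in SCR called 11 regions higher with IFNb than with MPS1i (background 5.82%) and 2 lower (6.82%). The 11 were 5 in MX1, 2 in MX2, 2 opposite MX1, the region opposite MX2 (2.41 ± 0.17) and the region past MX2 (2.46 ± 0.23). Some of these calls were also lost under alternatives. Those of chr21:41440776-41440881, chr21:41454926-41456260 and chr21:41367336-41367462 were lost without the low-count filter (edgeR adjusted p 0.201, 0.356 and 0.110) and with several single libraries left out. The calls of chr21:41440776-41440881 and chr21:41454926-41456260 were also lost with no TMM factors (edgeR adjusted p 0.080 and 0.071). The DESeq2 test did not call them either (adjusted p 0.055 and 0.064). That of chr21:41429975-41430439 was lost without MPS1i replicate 1 or IFNb replicate 1. The 2 lower were both regions past MX1, by -0.53 ± 0.15 for the nearer (edgeR adjusted p = 0.013) and -1.04 ± 0.23 for the farther (5.5e-04). The nearer call was lost when either library of either group was left out (adjusted p 0.065 to 0.141) and without the low-count filter (1.0); the farther call was kept under every alternative run. In IFNAR1sg, a comparison added after the values were seen, both fell again, by -1.22 ± 0.16 (1.2e-08) and -1.02 ± 0.23 (8.4e-04), the second losing its call without IFNb replicate 2 (adjusted p = 0.0501). A further region in MX1, chr21:41450748-41450928, was lower (-2.34 ± 0.82) and chr21:41429975-41430439 higher (1.05 ± 0.35), making 3 lower (background 6.48%) and 1 higher (5.85%). The former call was lost under 12 of the alternatives run (adjusted p 0.0504 to 0.403), and the latter under 4 (0.114 to 0.3505), among them leaving out MPS1i replicate 2 or IFNb replicate 2. The MX1 border region was higher with IFNb by 1.05 ± 0.16 in SCR and by 0.22 ± 0.17 in IFNAR1sg, the latter not called. The intronic sums were also higher with IFNb than with MPS1i in SCR, MX1 by 0.76 ± 0.16 and MX2 by 1.14 ± 0.21, where 3.39% of all sums were called higher.

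The balance between RNA past MX1 and RNA in MX1 within a library put this in one number. Reads past MX1 per read in MX1 were 1.54 and 1.28 under DMSO in SCR, 1.26 and 1.55 under MPS1i, and 0.481 and 0.442 under IFNb. For IFNAR1sg the ratios were 1.11 and 1.66 under DMSO, 1.76 and 2.0 under MPS1i, and 0.725 and 0.740 under IFNb. All 4 IFNb libraries lay below all 8 others. Among those 8, both IFNAR1sg MPS1i libraries lay above the rest, while SCR DMSO, SCR MPS1i and IFNAR1sg DMSO overlapped each other. On the log2 scale the ratio with IFNb differed from that with MPS1i by -1.60 in SCR and -1.35 in IFNAR1sg. The 36 arrangements of an exact two-sided permutation within genotype allow no p below 0.0556, and the ratio was chosen after the values were seen, so it and the 2 ratios that follow are descriptions with no test. A second ratio, reads opposite MX2 per read opposite MX1, was 1.81 and 2.40 in SCR IFNb, 0.913 and 0.951 in SCR MPS1i, and 0.553 to 0.807 in the other 8 libraries. The third, reads in MX2 per read in MX1, was 0.303 and 0.320 in SCR IFNb, 0.203 and 0.225 in SCR MPS1i, and 0.0714 to 0.168 elsewhere.

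**Figure D4:**
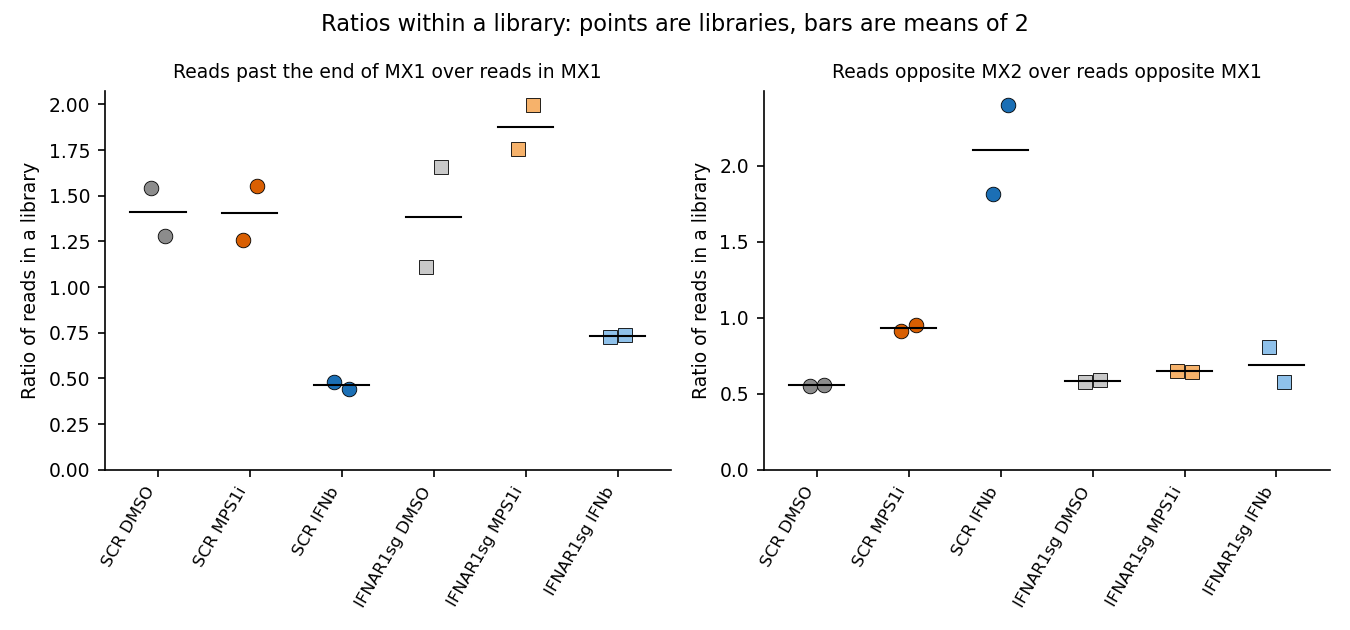
Ratios of reads within each of the 12 libraries (linear axes from 0; points are libraries, bars are means of 2). On the left, reads past MX1 per read in MX1 are 0.442 to 0.740 in the 4 IFNb libraries and at least 1.11 in the others; on the right, reads opposite MX2 per read opposite MX1 are highest in SCR IFNb.

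How far the responses depended on IFNAR1 was tested with the interaction, by how much a change in SCR exceeded the same change in IFNAR1sg. For IFNb, 7 of the 26 regions had a larger change in SCR (background 5.11%) and none a smaller one. They were the MX2 start (5.05 ± 0.90), the region past MX2 (3.38 ± 0.96), the region opposite MX2 (3.30 ± 0.43), 2 regions opposite MX1 (2.63 ± 0.64 and 1.41 ± 0.39), the MX1 border region (2.12 ± 0.30) and the nearer region past MX1 (1.52 ± 0.26). Without IFNAR1sg DMSO replicate 1 the count was 4, the calls past MX2 (edgeR adjusted p = 0.189) and opposite the 5′ and 3′ parts of MX1 (0.067 and 0.064) being lost. The call opposite the 3′ part, the 1.41, was also lost without IFNAR1sg DMSO replicate 2 (0.058) or IFNAR1sg IFNb replicate 2 (0.055), and it and the call past MX2 were lost without the low-count filter (0.314 and 0.218). The mean level in IFNAR1sg IFNb was 7.89% of that in SCR IFNb at the MX2 start, 5.09% past MX2, 5.18% opposite MX2, 15.1% opposite the 3′ part of MX1, 21.7% at the MX1 border and 35.6% past MX1. Among these 6 regions the level left in IFNAR1sg was lowest around MX2 and highest past MX1, and no difference between these percentages was tested. The locus still rose with IFNb in cells labelled as IFNAR1 knockouts, in which reads of the IFNAR1 region remained at 1.53 and 2.33 CPM under IFNb; the part of that remainder was not tested.

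For MPS1i the interaction called 0 of 26 regions (background 0.0505% higher and 0.0112% lower). At an unadjusted p under 0.05 edgeR gave 8, all positive. The share of all tested regions at that cutoff was not counted, so the 8 have no background and are not read as a result. DESeq2 called 1, the MX1 border region (1.29, adjusted p = 0.0166; edgeR 1.29 ± 0.30, adjusted p = 0.072). The MX1 sum did pass, with a larger MPS1i change in SCR (1.42 ± 0.37, edgeR adjusted p = 0.017, background 0.328% of 14642 gene sums). That call was lost when any of 6 single libraries was left out (adjusted p 0.051 to 0.115): SCR DMSO replicate 2, either SCR MPS1i library, either IFNAR1sg DMSO library or IFNAR1sg MPS1i replicate 2. The IFNb interaction of the MX1 sum was 1.87 ± 0.37 (1.1e-05, background 4.23%). For the MX2 sum neither passed, with 3 reads in IFNAR1sg DMSO as the limit; with exon-sharing regions added its IFNb interaction was 3.10 (edgeR adjusted p = 1.2e-04). Without treatment, IFNAR1sg and SCR differed in 0 of 26 regions by edgeR (background 0.0135% higher and 0.064% lower). At an unadjusted p under 0.05 there were 2, both lower in IFNAR1sg, again with no share of all regions counted. The lower of these by adjusted p was the region opposite the 3′ part of MX1 (-1.31 ± 0.32, edgeR adjusted p = 0.079), which DESeq2 called (0.0428).

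Set beside other interferon-responsive genes, both MX genes had large changes. Of 37 antiviral effector genes listed, 32 were measured as sums; 31 rose with MPS1i and 29 with IFNb in SCR, with median log2 changes of 2.72 and 2.64, against 0.09 and -0.57 over all 14642 sums (background 22.1% and 7.92% called higher). In IFNAR1sg 28 rose with MPS1i and 21 with IFNb, with medians of 1.76 and 1.12 (background 26.9% and 0.642%). With MPS1i, 6 effectors in each genotype changed more than MX1, and 1 in SCR, IFIT5, more than MX2. With IFNb, 4 in SCR and 2 in IFNAR1sg changed more than MX1 and none more than MX2. These places moved with the setting. With exon-sharing regions added, 2 in SCR and 7 in IFNAR1sg lay above MX1 with MPS1i, and 5 and 0 with IFNb. Above MX2 there were then 0 in SCR with MPS1i, and 2 in IFNAR1sg, IFIT5 and TRIM22. With single libraries left out, the number above MX1 with MPS1i in IFNAR1sg ran from 5 to 11. The place of MX2 rests on few DMSO reads: without IFNAR1sg DMSO replicate 1, 4 effectors with MPS1i (IFIT2, IFIT5, OAS2 and TRIM22) and 1 with IFNb (OAS2) lay above it in IFNAR1sg, and with IFNb in SCR TRIM22 lay above it without DMSO replicate 1 and TRIM5 without DMSO replicate 2. These genes, TRIM5 apart, are named after their values were seen. Examples were IFIT1, which binds viral RNA ends (4.05 ± 0.17 with MPS1i and 5.44 ± 0.17 with IFNb in SCR, 2.95 ± 0.19 and 2.34 ± 0.20 in IFNAR1sg), and TRIM5, a retroviral restriction factor (3.50 ± 0.15, 5.73 ± 0.15, 2.11 ± 0.16 and 2.01 ± 0.16). The RNA sensors IFIH1 and RIGI rose by 2.73 ± 0.13 and 2.70 ± 0.13 with MPS1i in SCR, and CMPK2, a mitochondrial nucleotide kinase, by 5.80 ± 0.24 with IFNb. The IFNb interaction was called for 26 of the 32 effectors as larger in SCR (background 4.23%) and for 1 as smaller (28.3%). The MPS1i interaction was called for 13 as larger (background 0.328%, with 1.07% of all sums called smaller).

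**Figure D5:**
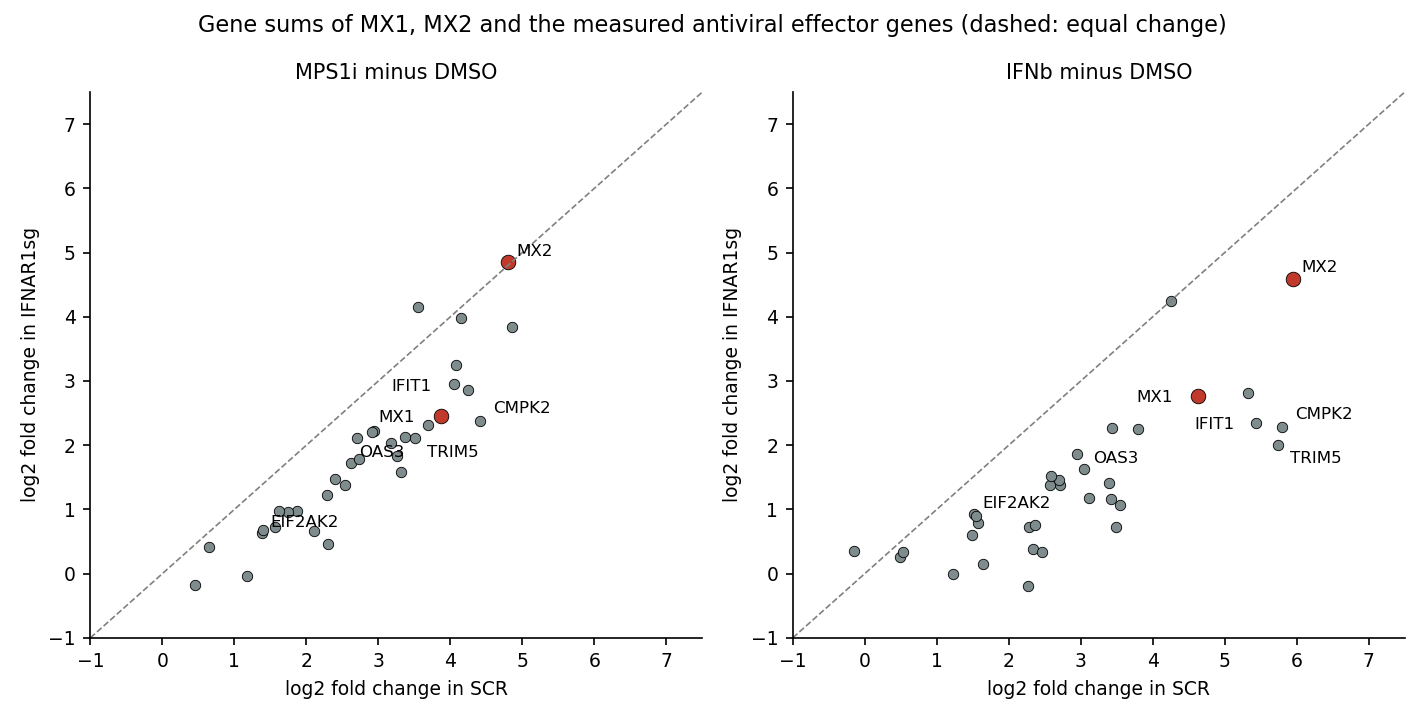
Log2 fold change of gene sums in IFNAR1sg against that in SCR for MX1, MX2 (red) and 32 antiviral effector genes (grey), for MPS1i (left) and IFNb (right), 2 libraries per group; the dashed line marks equal change. MX2 lies toward the right with both agents, and most effectors lie below the line.

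Among 9 measured genes of interferon signalling in SCR, 5 rose with MPS1i (background 22.1%) and none fell (21.4%). With IFNb 4 rose (7.92%) and 2 fell (38.5%). The transcription factor STAT2 rose by 2.68 ± 0.43 and 2.35 ± 0.46, IRF7 by 5.84 ± 0.81 and 6.59 ± 0.77, and USP18, which restrains receptor signalling, by 3.32 ± 0.20 and 4.50 ± 0.20. The IRF7 sum had 0 and 0.158 CPM in SCR DMSO, so its changes rest on almost no DMSO reads. The sum of the receptor gene IFNAR1 was among those that fell with IFNb in SCR (-1.99 ± 0.55), from 4.63 and 5.23 CPM under DMSO to 2.43 and 0. That sum leaves out regions that share an exon base; the IFNAR1 region with the most reads shares one and did not follow it, with 9.41 and 9.51 CPM under DMSO and 9.43 and 9.54 under IFNb. In IFNAR1sg with IFNb, 2 of the 9 rose (background 0.642%). Of 13 other members of the dynamin superfamily measured, 3 rose with MPS1i and 7 fell, and 3 rose and 8 fell with IFNb in SCR (background 22.1% and 7.92% called higher, 21.4% and 38.5% called lower). With IFNb in IFNAR1sg their median change was -0.03, against -0.06 over all sums. Those that rose were the interferon-inducible guanylate-binding proteins GBP1 (3.16 ± 1.12 and 4.73 ± 1.00), GBP2 (2.55 ± 1.06 and 2.83 ± 1.08) and GBP3 (2.15 ± 0.51 and 1.88 ± 0.55), GBP2 with MPS1i not without TMM scaling. In SCR DMSO GBP1 had 0.136 and 0.158 CPM and GBP2 0.273 and 0.158, so their changes rest on few DMSO reads. The endocytic dynamins DNM1 (-1.10 ± 0.15 and -1.92 ± 0.17) and DNM2 (-1.54 ± 0.19 and -1.63 ± 0.21) fell, as did ATL2, which shapes the endoplasmic reticulum (-1.06 ± 0.17 and -1.43 ± 0.19). In SCR IFNb the median of all sums was itself at -0.57, and relative to it these falls are smaller.

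Of 9 listed genes around the locus, 6 were measured. With MPS1i in SCR, 1 rose (background 22.1%) and 3 fell (21.4%), and with IFNb 4 fell (38.5%). BACE2 changed by -0.63 ± 0.12 and -1.04 ± 0.13, C2CD2 by -0.80 ± 0.22 and -1.30 ± 0.25, PRDM15 by -0.89 ± 0.29 and -1.44 ± 0.34, and ZBTB21 by 0.83 ± 0.27 and -1.34 ± 0.38. With IFNb in IFNAR1sg the 6 ran from -0.39 to 0.31. There edgeR called none in either direction (background 0.642% each way), with 0 at an unadjusted p under 0.05. With DESeq2 size factors and with no TMM factors the SCR counts of these neighbours were the same.

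Across the 12 libraries the sums that followed MX1 most closely (Pearson r of log2 CPM, among 14640 others) were EPSTI1 (0.993), PARP9 (0.991), EIF2AK2 (0.990), PLSCR1 (0.989) and OAS3 (0.989). Those closest to MX2 were XAF1 (0.993), OAS3 (0.985), NRIR (0.980), IFIT1 (0.979) and APOL4 (0.979), and MX1 and MX2 themselves had r = 0.965. The libraries share treatments and depth, and the values describe likeness only.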

How the data were processed

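J2-bound RNA was sequenced from 12 libraries, 2 for each of 6 groups. The authors deposited whole-number read counts per stranded genomic region, not normalized; per the submitters' processing notes, the tools were HOMER, featureCounts, STAR, cutadapt, Trimmomatic and Trim Galore with GRCh38 (hg38), and their settings are not given in the sources used here. Groups follow the sample labels. Regions were placed against GENCODE v29. Counts were filtered with filterByExpr (minimum count 10, total 15, proportion 0.7) and tested over 89111 regions in edgeR 4.0.16 (R 4.3.3; glmQLFit and glmQLFTest, a quasi-likelihood test), with TMM factors (0.855 to 1.08), all 12 libraries and 1 coefficient per group (6 residual degrees of freedom). Standard errors were taken as the absolute change over the root of its F statistic. Gene sums (14642 tested) left out regions that share an exon base. Calls are Benjamini-Hochberg adjusted p under 0.05. Data were simulated on 89111 regions for MPS1i against DMSO in SCR, with 1 fixed dispersion. Changes were planted only in regions with a mean of at least 10 reads per library. Of these, 72% of 4-fold and 10% of 2-fold changes were recovered. Tested locus regions below that mean are not covered by these rates. Replicates differed by more than sampling noise (chi-square per degree of freedom 1.80 to 2.95).

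The members and lists were chosen with earlier results of these data known. Named were the 20 tested regions with the most reads (the others by range), per list the 4 sums with the smallest p, and the 5 sums most like each gene. An item this rule would name is not reported here. Alternatives were other scalings, DESeq2, no filter, a replicate block, fewer groups, each library left out, and other region sets.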

Additional observations from a re-analysis of the deposited data

Results flagged for a closer look

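The following differed between genotypes by the interaction term of edgeR (the log2 change in SCR minus that in IFNAR1sg, adjusted p under 0.05), which is what marked them for a closer look. With IFNb the differences were 5.05 at the MX2 start (chr21:41361813-41361996), 3.38 past MX2 (chr21:41409396-41410287), 3.30 opposite MX2 (chr21:41361814-41410216), 2.12 at the MX1 border region (chr21:41452869-41454908), 1.52 past MX1 (chr21:41459653-41462274), 2.63 opposite the 5′ part of MX1 (chr21:41419823-41441030) and 1.41 opposite its 3′ part (chr21:41445995-41462255). The MX1 sum differed by 1.87 with IFNb and by 1.42 with MPS1i. In the 7 regions the SCR libraries under IFNb did not overlap the IFNAR1sg libraries under IFNb. The regions were picked by the IFNb interaction in the same libraries, so this only describes them and adds no support. The SCR IFNb libraries differed from the other 10 in how many regions held reads and in their exon-sharing reads, and the part of that in the IFNb differences was not tested. With 2 libraries per group no library could be examined as an outlier.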

How the results depend on the processing

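In the 4 comparisons with DMSO within a genotype, the number of locus regions called and the MX1 and MX2 sums kept their direction and call under every alternative run (16 to 24 regions in SCR, 9 to 16 in IFNAR1sg). The MX2 sum in IFNAR1sg moved most, from 4.11 to 8.39 with MPS1i and 3.86 to 8.14 with IFNb over single libraries left out, as it rests on 3 DMSO reads. Replicate numbers did not pair the libraries (15 group pairs, r -0.054 to 0.085). With the replicate block, 1 region was called for IFNAR1sg minus SCR in DMSO and 1 for the MPS1i interaction, against 0 each without it; the block changed no other of these counts by over 1.5 times. The DESeq2 test also gave 1 and 1, and 2 regions for IFNb minus MPS1i in IFNAR1sg, as did no filter (2, against 4). With exon-sharing regions added, the MX1 sum for IFNAR1sg minus SCR turned from 0.21 to -0.034, the MX2 sum turned from -0.05 to 1.56 for the MPS1i interaction and from -0.26 to 0.00032 for IFNb minus MPS1i in IFNAR1sg, and its IFNb interaction of 3.10 passed. With no TMM factors, the MX1 sum for IFNb minus MPS1i in IFNAR1sg passed (0.40), and the region opposite the 5′ part of MX1 turned from -0.048 to 0.041; this scaling lowers changes by 0.32 for IFNb and 0.17 for MPS1i in SCR. With MX1 regions sharing no exon base only, the log2 ratio past MX1 over MX1, IFNb minus MPS1i in SCR, was -1.37 against -1.60. The causes were not tested.

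Leaving out single libraries gave 0 to 1 regions for IFNAR1sg minus SCR and for the MPS1i interaction, 4 to 7 for the IFNb interaction, 8 to 13 for IFNb minus MPS1i in SCR and 1 to 4 in IFNAR1sg. The MX1 sum ranged from 1.20 to 1.70 for the MPS1i interaction and 0.11 to 0.59 for IFNb minus MPS1i in IFNAR1sg; the MX2 sum from -3.59 to 0.69 for the MPS1i interaction and -2.19 to 2.09 for the IFNb interaction. Alternatives were run for 10 regions (the 9 with the most reads and the minus-strand ones) in every comparison and elsewhere for regions called. Among these, signs turned where neither fit called the region: for IFNAR1sg minus SCR at the MX1 border region (-0.24 to 0.069), the nearer region past MX1 (-0.21 to 0.20) and opposite the 5′ part of MX1 (-0.46 to 0.64); for the MPS1i interaction at chr21:41442747-41445490 (-2.64 to 0.19) and chr21:41431684-41432031 (-0.77 to 0.95), the former also for the IFNb interaction (-1.78 to 1.06); and for IFNb minus MPS1i in IFNAR1sg opposite MX2 (-0.23 to 0.50), opposite the 3′ part of MX1 (-0.13 to 0.31), opposite its 5′ part (-0.22 to 0.20) and at chr21:41442747-41445490 (-0.54 to 0.39). An arm left with 1 library was assumed to vary like the others. The DESeq2 test left 122 adjusted p-values of tested members as missing, which entered no count of lost calls. Low reads in DMSO libraries limit the precision of the MX2 fold changes.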
